A study of Mus with 6 samples.

Results

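A set of 10 genes for secreted proteins that act on myeloid cells was followed in the 4T1 mouse mammary carcinoma line treated with isopimaric acid (IPA). They were chosen by Ensembl ID from a fixed list, 10 of the 35304 IDs in the count table. They are the colony-stimulating factors Csf1, Csf2 and Csf3, the CXC chemokines Cxcl1, Cxcl2 and Cxcl5, the CC chemokines Ccl2 and Ccl5, and the IL-6 family cytokines Il6 and Lif. The design sets 3 IPA libraries, from 4T1 cells given 10 µg/mL IPA for 24 h, against 3 untreated libraries, from 4T1 cells with no treatment. IPA is a plant diterpene acid, which the series title calls an ion channel regulator. RNA came from this line grown alone in plates, as far as the labels say, so the values are mRNA of cultured tumour cells and not the protein they released.

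Colony-stimulating factors bind receptors on myeloid progenitors and mature myeloid cells and control how many granulocytes and macrophages are made and how long they live. The CXC chemokines in the list signal through the receptor Cxcr2 and draw neutrophils out of the bone marrow and into tissue, while Ccl2 attracts monocytes through Ccr2. Tumours of 4T1 cells are known for the strong expansion of neutrophils that they cause in the host mouse, an effect in which G-CSF, the product of Csf3, has a central part.

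On the mouse assembly GRCm38.p6, 5 of the 10 genes lie on chromosome 11, 4 on chromosome 5 and 1 on chromosome 3. Cxcl5 (chr5:90759298-90761625), Cxcl1 (chr5:90891245-90893121) and Cxcl2 (chr5:90903899-90905938) sit together within 147 kb that hold 7 protein-coding genes of the RefSeq annotation, and Il6 (chr5:30013114-30019975) is far from them. Lif (chr11:4257568-4272514), Csf2 (chr11:54247270-54249899), Ccl2 (chr11:82035577-82037452), Ccl5 (chr11:83525778-83530518) and Csf3 (chr11:98700183-98703631) are spread along chromosome 11, and Csf1 is at chr3:107741048-107760469. These positions are whole genes, exons and introns together, and the counts are totals per gene.

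The libraries held from 3410411 counts, in IPA replicate 1, to 58924711, in untreated replicate 2. Untreated replicate 2 stood apart: its correlation across genes with the other 5 libraries in log2 counts per 1000000 counts of the library (CPM) was 0.779 to 0.811, against 0.922 to 0.987 among those 5. Of 24935 IDs tested, 54.6% differed more than 2-fold, in log2 CPM scaled by TMM factors, between untreated replicate 2 and the mean of untreated replicates 1 and 3, against 9.29% between untreated replicates 1 and 3. Of the 9 genes of the list that were tested, 6 did so on that scale in the first comparison and 0 in the second. Fold changes are therefore given over all 6 libraries and without untreated replicate 2. The markers that would test the labelled cell line, or show other cells, were not analysed here. No source used here states that replicates were separate cultures, and the spread behind each p-value may therefore be technical.

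Csf2, Cxcl1 and Cxcl5 had lower CPM in all 3 IPA libraries than in any untreated library. So did 6.38% of all tested IDs, while 15.7% had every IPA library above. Without untreated replicate 2 each of the 3 fell with IPA, Csf2 by the most. None of the 9 tested genes was called higher there, though 2 had a positive log2 fold change. Over all 6 libraries none passed the test, but in simulated counts that fit recovered 0 of 100 changes of 4-fold. The simulation gave a gene the same spread in every library, whereas in the data untreated replicate 2 alone stood apart. The 0 is therefore not a measure of the power of the fit to the data. Still, the lack of calls over all 6 libraries does not show equal levels. In the edgeR test over all 6 libraries, with Benjamini-Hochberg adjustment over all IDs, 0 of the 9 tested genes were called higher and 0 lower at an adjusted p under 0.05, and the background was the same, with 0% of the 24935 IDs called in either direction. Before adjustment, 3 of the 9 had a p under 0.05, namely Csf2, Cxcl1 and Cxcl5, as did 6.26% of all tested IDs. Without untreated replicate 2, 0 of 9 were higher and 3 of 9 lower, against 1.26% of 25592 IDs higher and 2.20% lower. In IDs these were 322 higher and 564 lower, and with library totals in place of TMM factors 691 and 327, with the same 3 genes lower. The counts of the list were the same with IPA replicate 1 left out as well, where 2.88% of IDs were higher and 3.05% lower. DESeq2 called 0 of these genes over all 6 libraries, where it called 0.119% of IDs higher and 0.341% lower, and the same 3 lower without untreated replicate 2, where it called 3.71% higher and 3.86% lower. Limma-voom with sample quality weights set the weight of untreated replicate 2 at 0.0388, against 1.27 to 4.37 for the others, and there the same 3 were lower over all 6 libraries, against 1.97% of IDs higher and 3.03% lower. The median log2 fold change of the 9 was -0.89 over all 6 libraries, where that of all IDs was -0.08. Without untreated replicate 2 it was -0.67, where that of all IDs was -0.04. These medians are the values of single genes with few reads, Ccl5 and Cxcl2 in turn. The 95% interval of each included 0 in that fit, so the medians do not establish a shift of the list. In cultured cells in bulk, fewer cells that make an mRNA and less of it per cell cannot be told apart.

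**Figure D1:**
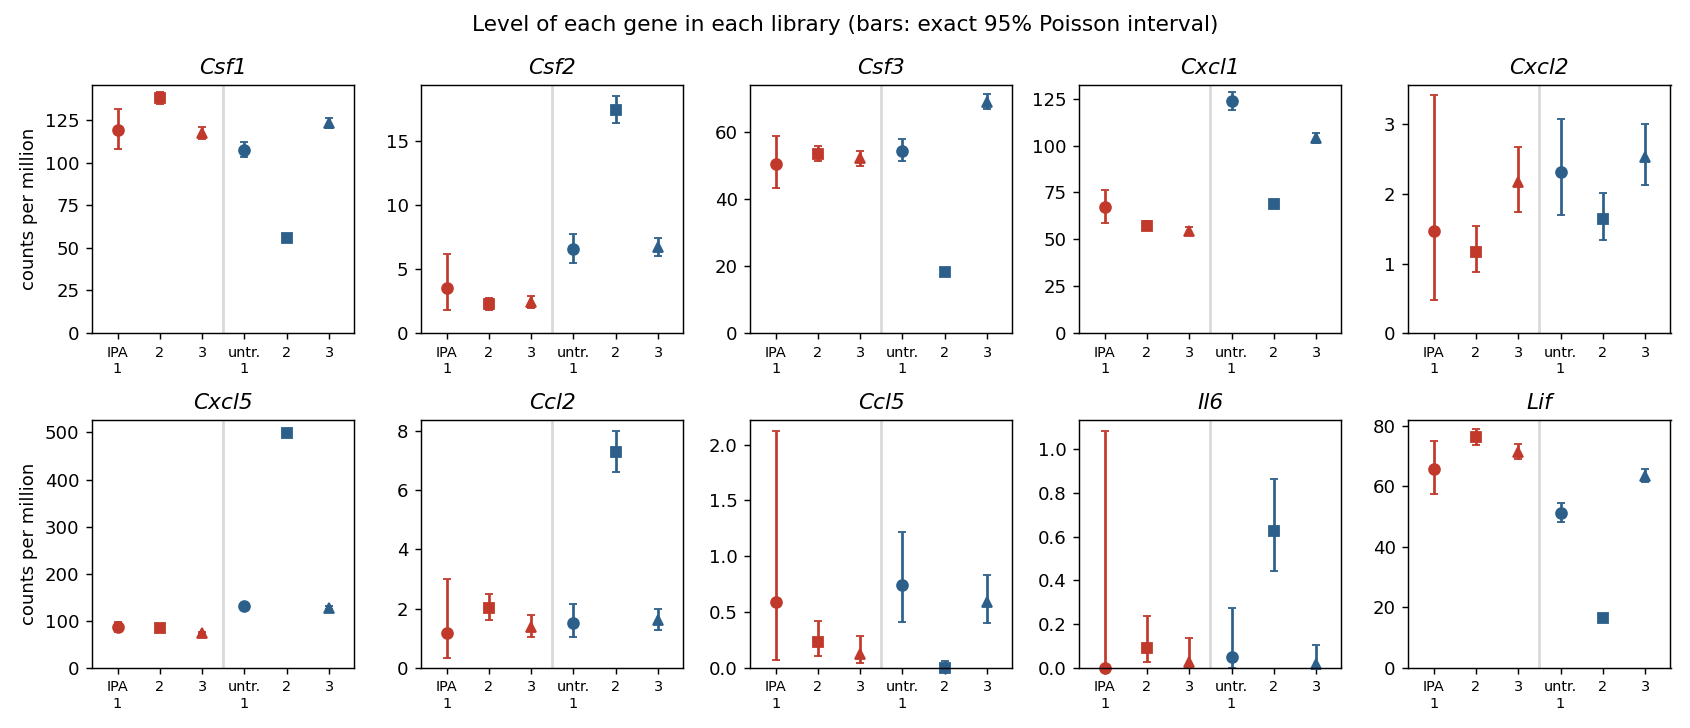
Level of each of the 10 genes in CPM (vertical axes from 0, a different range per gene), with the 3 IPA libraries in red at left and the 3 untreated libraries in blue at right. Points are single libraries and bars are exact 95% Poisson intervals, which cover counting error only. Csf2, Cxcl1 and Cxcl5 sat lower in every IPA library, and untreated replicate 2 (blue square) lay far from the other untreated libraries for Cxcl5, at 499.7 CPM, and for Lif, at 16.4 CPM.

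Csf2 (ENSMUSG00000018916) encodes GM-CSF, which drives the production and activation of granulocytes and macrophages. It stood at 3.52, 2.23 and 2.39 CPM in IPA replicates 1, 2 and 3, against 6.52, 17.4 and 6.70 CPM in untreated replicates 1, 2 and 3. The groups did not overlap, the IPA libraries differed among themselves by at most 1.58-fold, and untreated replicate 2 was far above the other untreated libraries. The means were 2.71 ± 0.704 CPM with IPA and 10.2 ± 6.24 CPM untreated (SD, n = 3 each). Over all 6 libraries the log2 fold change was -2.31 ± 0.62 (SE), with an edgeR adjusted p of 0.657 and an unadjusted p of 0.00717. Csf2 fell by 1.51 ± 0.30 (SE) on the log2 scale without untreated replicate 2 (edgeR adjusted p = 0.00793), which is 2.86-fold lower with a 95% interval from 1.85 to 4.40. In that comparison 2.14% of all tested IDs had a lower log2 fold change. IPA replicate 1 contributed 12 reads, an exact Poisson interval of 1.82 to 6.15 CPM. That interval shared values with those of untreated replicates 1 and 3, at 5.45 to 7.73 and 6.02 to 7.43 CPM. Without untreated replicate 2 and IPA replicate 1 together the log2 fold change was -1.58 (edgeR adjusted p = 0.00248).

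Csf3 (ENSMUSG00000038067) encodes G-CSF, the main growth factor of neutrophils. Its level was 50.4, 53.5 and 52.0 CPM in IPA replicates 1, 2 and 3, against 54.3, 18.1 and 68.9 CPM in untreated replicates 1, 2 and 3. All IPA libraries lay below untreated replicates 1 and 3 and above untreated replicate 2, so the groups overlapped. The log2 fold change of Csf3 over all 6 libraries was -0.01, with a 95% interval from -0.88 to 0.86 (edgeR adjusted p = 0.995). Without untreated replicate 2 it was -0.35, with an interval from -0.65 to -0.05 and an edgeR adjusted p of 0.200, so Csf3 did not pass.

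Csf1 (ENSMUSG00000014599) encodes M-CSF, on which macrophages depend for survival. Csf1 had 119, 138 and 117 CPM in IPA replicates 1, 2 and 3, against 108, 55.9 and 123 CPM in untreated replicates 1, 2 and 3. Apart from untreated replicate 2, which was low, the ranges of both groups overlapped, with the highest value in IPA replicate 2 and the lowest in untreated replicate 1. The log2 fold change of Csf1 was 0.01 without untreated replicate 2, with a 95% interval from -0.27 to 0.29 (edgeR adjusted p = 0.988). The interval as a fold ran from 0.83 to 1.22. It was 0.20 over all 6 libraries, with an interval from -0.35 to 0.76 (edgeR adjusted p = 0.782).

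Among the CXC chemokines, Cxcl1 (ENSMUSG00000029380), a neutrophil attractant also known as KC, had 67.1, 57.3 and 54.3 CPM in IPA replicates 1, 2 and 3, against 124, 68.9 and 104 CPM in untreated replicates 1, 2 and 3. The groups did not overlap, but the gap between IPA replicate 1 and untreated replicate 2 was within counting error, since their Poisson intervals of 58.7 to 76.4 and 66.8 to 71.0 CPM shared values. The means were 59.6 ± 6.71 CPM with IPA and 98.8 ± 27.7 CPM untreated (SD, n = 3 each). Over all 6 libraries the log2 fold change was -0.93 ± 0.20 (SE; edgeR adjusted p = 0.657, unadjusted p = 0.00221). Without untreated replicate 2, Cxcl1 fell by 1.06 ± 0.14 (SE) on the log2 scale (edgeR adjusted p = 0.000235), or 2.08-fold with a 95% interval from 1.70 to 2.54. The size of the difference was thus close in both fits, and what differed most was its adjusted p.

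Cxcl5 (ENSMUSG00000029371), known in the mouse as LIX and also a neutrophil attractant, had 86.2, 83.6 and 73.9 CPM in IPA replicates 1, 2 and 3, against 131, 499.7 and 128 CPM in untreated replicates 1, 2 and 3. The IPA libraries differed among themselves by at most 1.17-fold and the untreated libraries by up to 3.90-fold, with untreated replicate 2 far above the rest. Over all 6 libraries the log2 fold change was -2.03 ± 0.68 (SE; edgeR adjusted p = 0.657, unadjusted p = 0.0197). Cxcl5 fell by 0.78 ± 0.13 (SE) on the log2 scale without untreated replicate 2 (edgeR adjusted p = 0.00201), or 1.72-fold with a 95% interval from 1.43 to 2.08. With that library in the fit, the difference was 4.09-fold.

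Cxcl2 (ENSMUSG00000058427), or MIP-2, the third CXC chemokine of the list, had 5, 51 and 89 reads in IPA replicates 1, 2 and 3, against 47, 97 and 134 reads in untreated replicates 1, 2 and 3. Its level was 1.47, 1.17 and 2.17 CPM in IPA replicates 1, 2 and 3, against 2.32, 1.65 and 2.53 CPM in untreated replicates 1, 2 and 3, so the groups overlapped on this scale. The log2 fold change was -0.63 over all 6 libraries (edgeR adjusted p = 0.700). It was -0.67 without untreated replicate 2, with a 95% interval from -1.49 to 0.15 (edgeR adjusted p = 0.426), which holds both no change and a fall as large as that of Cxcl1. Cxcl1 and Cxcl2 are related in sequence, and how reads matching several genes were counted is not given in the sources used here.

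**Figure D2:**
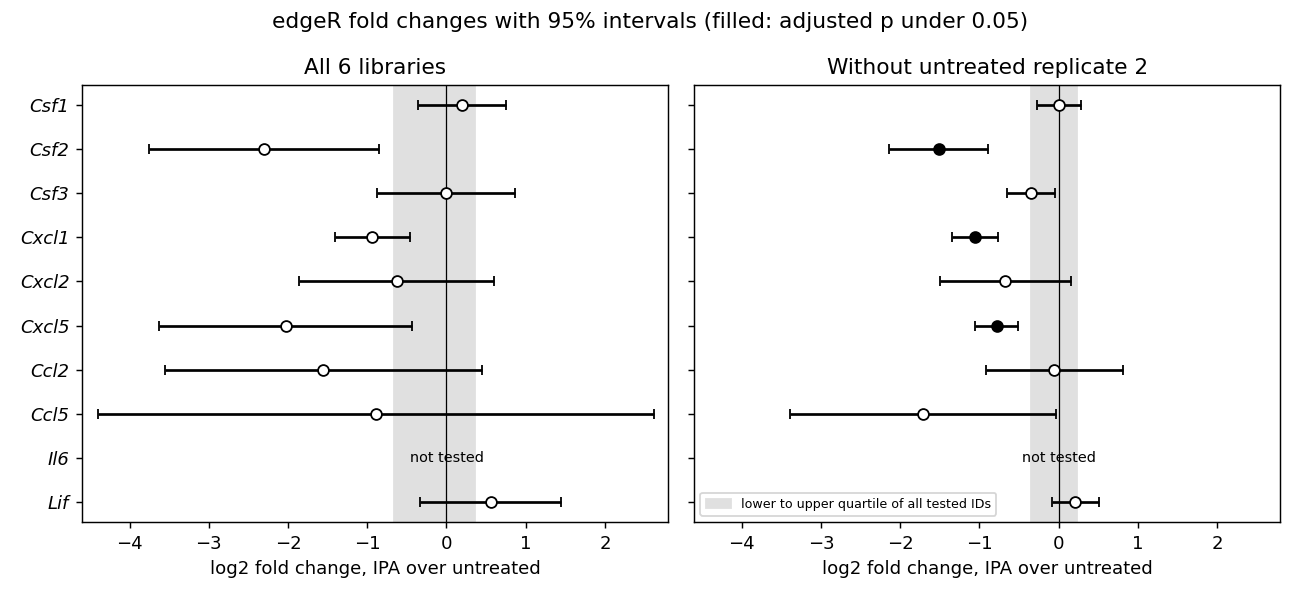
Log2 fold changes of IPA over untreated from edgeR (horizontal axis) with 95% intervals, over all 6 libraries at left and without untreated replicate 2 at right; filled points have an adjusted p under 0.05, and the grey band runs between the lower and upper quartile of all tested IDs. No point is filled at left, and Csf2, Cxcl1 and Cxcl5 are filled at right, where the interval of each tested gene is narrower than at left.

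The CC chemokines were near the limit of detection in IPA replicate 1, where 3 reads correspond to 0.880 CPM. Ccl2 (ENSMUSG00000035385), the monocyte attractant MCP-1, had 1.17, 2.02 and 1.39 CPM in IPA replicates 1, 2 and 3, against 1.53, 7.28 and 1.61 CPM in untreated replicates 1, 2 and 3. The IPA libraries lay around untreated replicates 1 and 3, and untreated replicate 2 alone was high. Without untreated replicate 2 the log2 fold change was -0.05, with a 95% interval from -0.92 to 0.81 (edgeR adjusted p = 0.974), and over all 6 libraries it was -1.56 (edgeR adjusted p = 0.657). Ccl5 (ENSMUSG00000035042), or RANTES, which attracts T cells and monocytes, had 2, 10 and 5 reads in IPA replicates 1, 2 and 3, against 15, 0 and 31 reads in untreated replicates 1, 2 and 3. For the 0 reads in untreated replicate 2, a limit of 3 reads corresponds to 0.0509 CPM and the upper bound of the exact 95% Poisson interval to 0.0626 CPM, and the other untreated libraries had 0.740 and 0.586 CPM. Ccl5 had a log2 fold change of -0.89 over all 6 libraries, with a 95% interval from -4.39 to 2.61 (edgeR adjusted p = 0.843). It was -1.71 without untreated replicate 2, with an interval from -3.39 to -0.03 and an edgeR adjusted p of 0.285, so Ccl5 passed in neither.

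In the IL-6 family, Lif (ENSMUSG00000034394), a cytokine that signals through the receptor pair Lifr and Il6st, had 65.7, 76.2 and 71.5 CPM in IPA replicates 1, 2 and 3, against 51.2, 16.4 and 63.6 CPM in untreated replicates 1, 2 and 3. Every IPA library was above every untreated library on this scale, as for 15.7% of all tested IDs, while 6.38% had every IPA library below. With CPM divided by TMM factors Lif overlapped, at 59.0 CPM in IPA replicate 1 against 62.1 CPM in untreated replicate 3. The log2 fold change was 0.56 over all 6 libraries, with a 95% interval from -0.33 to 1.44 (edgeR adjusted p = 0.665). It was 0.21 without untreated replicate 2, with an interval from -0.09 to 0.51 (edgeR adjusted p = 0.516). Il6 (ENSMUSG00000025746), the cytokine that gives the family its name, did not pass the filter on low counts. It had 0, 4 and 1 reads in IPA replicates 1, 2 and 3, against 1, 37 and 1 reads in untreated replicates 1, 2 and 3, so reads were few in all libraries but untreated replicate 2, and no fold change is given.

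Non-overlap was thus seen downward for 3 of the 9 tested genes, Csf2, Cxcl1 and Cxcl5, and upward for 1, Lif, against 6.38% of all tested IDs downward and 15.7% upward. With CPM divided by TMM factors, 4 genes had every IPA library below every untreated library, the same 3 and Cxcl2, and 0 had every IPA library above. On that scale 10.7% of all tested IDs had every IPA library below and 9.50% every IPA library above. An exact two-sided permutation test over the 6 libraries on log2(CPM + 1) gave p = 0.1 for Csf2, Cxcl1, Cxcl5 and Lif, the smallest that 3 against 3 can give. Any gene whose groups do not overlap in CPM gets this p, so the test only restates the non-overlap.

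Within the reads of the 10 genes, Cxcl1 and Cxcl5 together held a smaller part in the IPA libraries and Csf1, Csf3 and Lif together a larger one, groupings made after the values were seen. Cxcl1 and Cxcl5 together took 38.8%, 34.0% and 34.2% of these reads in IPA replicates 1, 2 and 3, against 53.1%, 82.9% and 46.5% in untreated replicates 1, 2 and 3. Csf1, Csf3 and Lif together took 59.5%, 64.6% and 64.2% in IPA replicates 1, 2 and 3, against 44.5%, 13.2% and 51.2% in untreated replicates 1, 2 and 3. Neither summed share overlapped between the groups, and how often shares of other gene sets do so was not computed. A larger share is not a higher level. The CPM of Csf1 and that of Csf3 overlapped between the groups, and that of Lif did so once divided by TMM factors. Csf2, Cxcl2, Ccl2, Ccl5 and Il6 together held only 1.38% to 3.93% in any library, so either summed share nearly fixes the other. The share of Csf3 alone overlapped, at 12.8% to 13.9% in the IPA libraries and 2.64% to 13.8% in the untreated libraries. The 10 genes summed to 395, 414 and 375 CPM in IPA replicates 1, 2 and 3, against 479, 686 and 499 CPM in untreated replicates 1, 2 and 3. These are shares of reads, which also depend on transcript length, and so do not give the proportions of molecules.

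**Figure D3:**
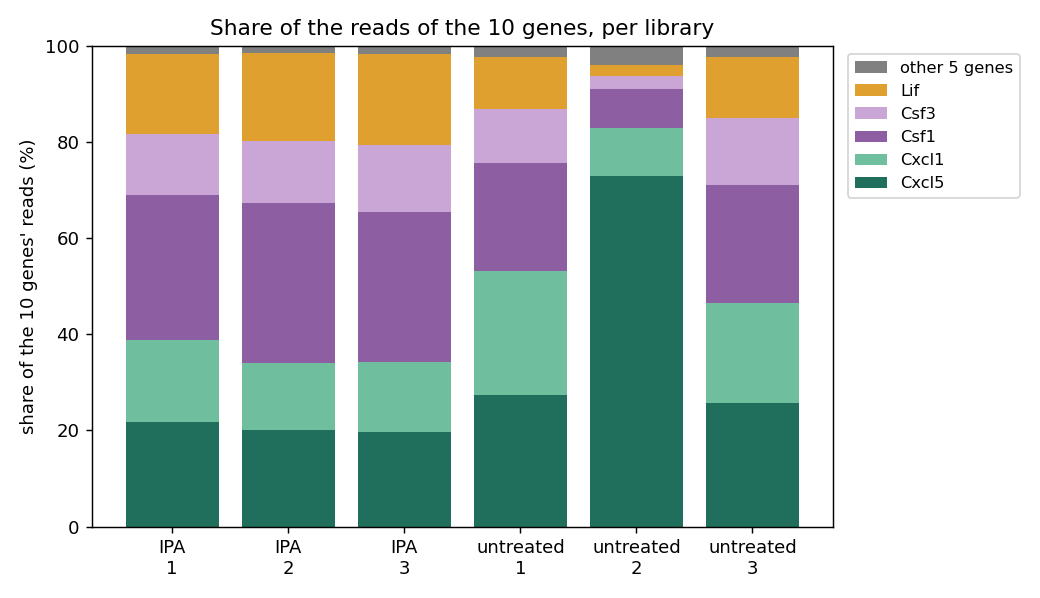
Share of the summed reads of the 10 genes (vertical axis, percent) taken by each gene in each library, IPA at left and untreated at right; the grey part is Csf2, Cxcl2, Ccl2, Ccl5 and Il6 together. The green parts, Cxcl1 and Cxcl5, make up 34.0% to 38.8% of the IPA bars and 46.5% to 82.9% of the untreated bars.

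Ratios of reads between genes of the same library do not depend on library totals or normalization factors. The pairs were chosen after the counts were seen, so they are given without a test. Per read of Csf1 there were 0.0296, 0.0162 and 0.0204 reads of Csf2 in IPA replicates 1, 2 and 3, against 0.0606, 0.312 and 0.0544 in untreated replicates 1, 2 and 3. For Cxcl1 per Csf1 the ratios were 0.564, 0.416 and 0.463 in IPA replicates 1, 2 and 3, against 1.15, 1.23 and 0.844 in untreated replicates 1, 2 and 3. Cxcl5 per Csf1 was 0.724, 0.607 and 0.631 in IPA replicates 1, 2 and 3, against 1.22, 8.95 and 1.04 in untreated replicates 1, 2 and 3. These 3 ratios were lower in every IPA library, and they draw on the same counts whose CPM already did not overlap. They therefore add no separate evidence. How often ratios of other gene pairs separate the groups was not computed, for these or the ratios below. Lif per Csf1 was higher in every IPA library, at 0.552 to 0.610, against 0.294 to 0.516 in the untreated libraries. The 0.552, in IPA replicate 1, rested on 224 Lif and 406 Csf1 reads. Its gap to the 0.516 of untreated replicate 3 may lie within counting error, which was not computed. Csf3 per Csf1 overlapped, at 0.388 to 0.444 in the IPA libraries and 0.324 to 0.560 in the untreated libraries, and so did Cxcl5 per Cxcl1, at 1.28 to 1.46 in the IPA libraries and 1.06 to 7.26 in the untreated libraries. The ratio of Cxcl1 to Csf1 in untreated replicate 2 was close to that in untreated replicate 1, although the CPM of both genes was lower there.

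Csf3 and Lif kept a steady ratio within each group. Csf3 per Lif was 0.768, 0.701 and 0.727 in IPA replicates 1, 2 and 3, against 1.06, 1.10 and 1.08 in untreated replicates 1, 2 and 3. Untreated replicate 2 was in the range of its group here, although its CPM of both genes was 3.40-fold (Csf3) and 3.50-fold (Lif) below the mean of untreated replicates 1 and 3. As a share of the reads of both genes, Csf3 took 43.4% in IPA replicate 1, with an exact Clopper-Pearson 95% interval from 38.5% to 48.5%. It took 41.2% and 42.1% in IPA replicates 2 and 3, against 51.5%, 52.5% and 52.0% in untreated replicates 1, 2 and 3, where the lowest interval bound was 49.4%. The intervals cover counting error only. Neither Csf3 nor Lif passed the edgeR test on its own, and a ratio that differs does not say which of the genes differed. Since the pair was chosen after the counts were seen, the difference of this ratio between the groups was not tested. The share of other gene pairs whose ratios separate the groups was not computed.

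**Figure D4:**
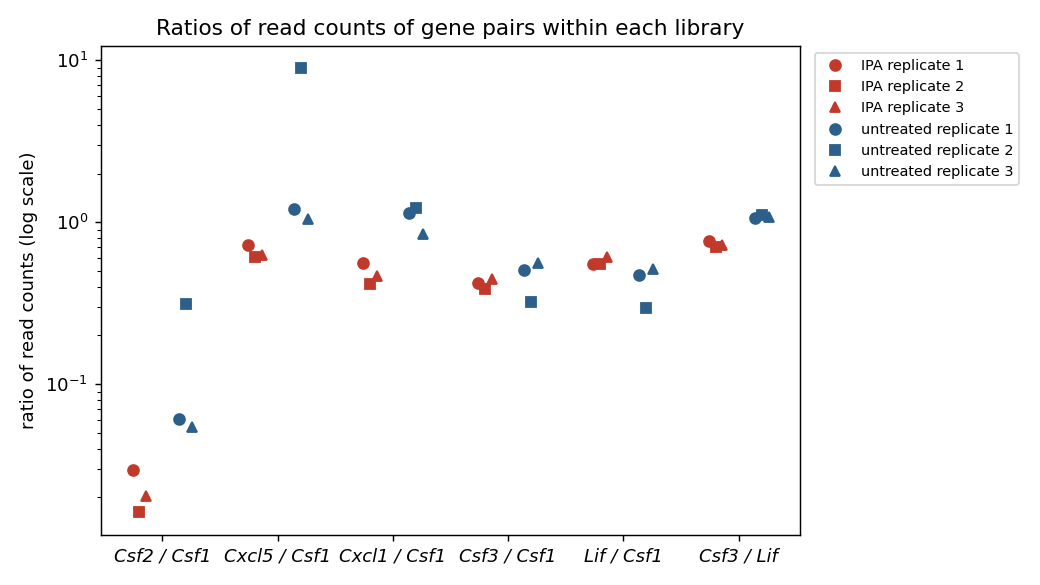
Ratios of read counts between gene pairs within each library (vertical axis, log scale), with IPA libraries in red at the left and untreated libraries in blue at the right of each pair; circles, squares and triangles are replicates 1, 2 and 3. For Csf3 per Lif the 3 untreated libraries lie between 1.06 and 1.10, untreated replicate 2 included, and the 3 IPA libraries between 0.701 and 0.768.

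Untreated replicate 2 did not differ from its group in 1 direction across the list. Relative to the mean CPM of untreated replicates 1 and 3 it was 4.64-fold higher for Ccl2, 3.86-fold higher for Cxcl5 and 2.64-fold higher for Csf2. It was 3.50-fold lower for Lif, 3.40-fold lower for Csf3, 2.06-fold lower for Csf1, 1.65-fold lower for Cxcl1 and 1.47-fold lower for Cxcl2. These folds use CPM without TMM factors, and its factor was 0.754, against 1.02 in untreated replicates 1 and 3. Division by the factors makes the lower folds smaller and the higher folds larger. Cxcl1 was then at 91.3 CPM in untreated replicate 2, against 121 and 102 CPM in untreated replicates 1 and 3. Cxcl2 was at 2.18 CPM, against 2.28 and 2.48 CPM, and Csf1 at 74.1 CPM, against 106 and 120 CPM. It also held 37 of the 44 Il6 reads and 0 of the 63 Ccl5 reads of the 6 libraries. The part that its state, or other cells in it, had in the comparison of all 6 libraries was not tested.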

How the data were processed

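RNA-seq of total RNA was given as raw read counts for 35304 Ensembl IDs in 6 libraries, whole numbers deposited by the authors, per the file headers and values. Genome builds GRCm38 and mm10 stand in the submitters' processing notes; the aligner, counting tool and use of strand are not given in these sources. Groups come from the sample titles, and treated columns, headed IA, were matched to titles by number. Gene names of the 10 IDs come with the list itself, and their positions from RefSeq GRCm38.p6, where 10 of 10 symbols matched. That table pairs 0 of its 49997 genes with Ensembl IDs, so related gene lists and cell type markers, fixed by symbol, were not analysed here.

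The test was edgeR 4.0.16 (R 4.3.3): robust quasi-likelihood fit, TMM factors, filterByExpr, and Benjamini-Hochberg adjustment over all tested IDs, with calls at 0.05. The SE is the log2 fold change over the square root of F, and 95% intervals use the t distribution of the fit. CPM use library totals without TMM factors, so their ratios differ from fitted folds. No replicates agreed within sampling noise (chi-square per degree of freedom at least 6.56). Alternatives used DESeq2 1.42.0, limma 3.58.1, other factors and filters, the replicate block and left-out libraries. The script was tested on simulated counts with 100 IDs changed 2-fold and 100 changed 4-fold. With the spread of all 6 libraries, given to every library alike, it recovered 0 and 0 of them, with 0 false calls. With that of the libraries without untreated replicate 2 it recovered 59 and 90, with 13 false calls. All 10 genes are named. The genes, lists and alternatives were chosen with earlier results of these data known.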

Additional observations from a re-analysis of the deposited data

How the results depend on the processing

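Over all 6 libraries the counts of higher and lower IDs were 0 and 0. They were 22 and 63 with DESeq2, 492 and 755 with limma-voom with sample quality weights, and 1 higher with library totals and with no filter on low counts. With untreated replicate 2 left out they were 634 and 660 with DESeq2, 691 and 327 with library totals, and 660 and 1009 with limma-voom; without untreated replicate 2 and IPA replicate 1 together they were 719 and 763. With each library left out in turn, the higher IDs numbered 0 to 322, the lower IDs 0 to 564 and the lower genes of the list 0 to 3, the values above 0 coming without untreated replicate 2. Of the list, 3 genes were lower in each setting that left out or down-weighted that library, each time Csf2, Cxcl1 and Cxcl5, and 0 were higher in any setting. These 3 had a negative log2 fold change in all 19 alternatives and passed in 6 of them, with adjusted p-values from 5.27e-08 to 0.998. With library totals and without untreated replicate 2 their log2 fold changes were -1.41 (Csf2), -0.95 (Cxcl1) and -0.68 (Cxcl5). DESeq2 over all 6 libraries gave adjusted p-values of 0.0590, 0.0640 and 0.226 for Csf2, Cxcl1 and Cxcl5. The cause of the differences between settings was not tested beyond leaving out libraries.

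Signs turned only for genes that never passed. Ccl2 was at 0.0492 with limma-voom with sample quality weights, 0.0479 with library totals without untreated replicate 2, and 0.0533 without untreated replicate 2 and IPA replicate 1 together. Ccl5 was at 0.47 with limma-voom and 0.0679 with the replicate block. Csf3 was at 0.0099 with DESeq2, 0.011 with RLE factors, 0.0041 with no filter, 0.14 with library totals, 0.15 with limma-voom and 0.11 with the replicate block, and, with 1 library left out, was lowest at -0.35 (without untreated replicate 2) and highest at 0.32 (without untreated replicate 3), with 0.04 without IPA replicate 1 and 0.11 without untreated replicate 1. With TMM-scaled CPM, an alternative added after the data were seen, 0 genes had every IPA library above every untreated library, against 1. With the replicate block 0 IDs were called. The deviations of same-numbered libraries from their group means correlated at -0.0771, 0.0183 and 0.161. By these deviations 3 of 6 libraries matched best with their own number. The numbers were not taken as pairs, but these values cannot decide whether libraries were paired, since the untreated mean includes untreated replicate 2. Library totals moved the median log2 fold change of all IDs from -0.08 to 0.13. Depth limits Cxcl2, Ccl2, Ccl5 and Il6 most. The related lists were not run.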
